A study of Mus musculus with 6 samples.

Results

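Cx3cr1, P2ry6, Entpd1 and Mef2c were followed in the immortalised mouse microglial line Bv2 after oxygen and glucose deprivation with reperfusion (OGD/R) and in control cells. These 4 genes were taken by symbol from a table of 1228 genes, with earlier results of these data known. Of these, 3 mark resting microglia or sense extracellular nucleotides at the cell surface, and the other is a transcription factor of the resting state. P2ry12 and P2ry13, described below, have such roles too and were not among them. The OGD/R group (3 samples) was wild type Bv2 cells that had 30 min in nitrogen, 2 h at 1% oxygen without glucose or serum, and 24 h back in standard medium. The control group (3 samples) was wild type Bv2 cells labelled control, and the labels do not describe how they were handled in the meantime. The protocol text, attached to both groups, also mentions an infection, with a time of 72 h. Whether either group was infected is not stated, so infection and OGD/R cannot be told apart if only one was. Nothing in the labels says that the 3 samples of a group came from separate cultures, so p-values here reflect sample-to-sample spread that may be purely technical. Bv2 is one transformed line grown alone, without the neurons and astrocytes that hold microglia in their resting state in the brain.

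Resting microglia survey the brain with surface receptors. Cx3cr1 is the receptor for fractalkine, a chemokine that neurons display on their membrane. P2ry6 is a G protein-coupled receptor for UDP, a nucleotide that leaks from injured cells, and in mouse microglia it is known to drive phagocytosis. Entpd1 (CD39) is a membrane enzyme that strips phosphates from extracellular ATP and ADP, and so lowers the nucleotides that purine receptors sense while feeding the production of adenosine. Mef2c is a MADS-box transcription factor of the myeloid lineage, known in mouse microglia to restrain their response to inflammatory stimuli.

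The values are FPKM, fragment counts scaled by exon length and library size, as deposited by the authors. Because of the scaling by length, levels can be set side by side between genes, though only roughly. Each gene is given a single length, while its transcripts are not separated. The deposited table holds 605 genes with a higher mean in OGD/R and 623 with a lower one, and no gene whose log2 ratio of group means lay between -0.97 and 1.03. The table thus holds genes selected beforehand for differing between these very libraries, and how they were selected is not stated. Of 852 genes with a mean of at least 1 FPKM, 829 (97.3%) were called in limma at an adjusted p under 0.05, and a call on a single gene carries no more weight than that background gives it. Low FPKM values fall on steps, from which library sizes of 8016000 to 8656000 counted units were recovered for OGD/R and of 7614000 to 8248000 for control. Of the low values used, 97.7% to 100.0% came out whole (within their rounding error plus 0.03 units).

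Of 12 genes listed as markers of the whole myeloid lineage, Itgb2 is in the table, at 54.45 to 55.18 FPKM in OGD/R and 19.66 to 25.3 in control libraries, and the other listed markers are not analysed here. Few listed markers of other cell types are in the table, and a marker that did not differ between the groups would be absent from it. Mrc1, a border macrophage marker and 1 of 8 such genes listed, summed to 1.43 to 2.62 FPKM in OGD/R and 0.70 to 1.25 in control libraries. Vwf, 1 of 6 endothelial genes, was at 1.10 to 1.74 FPKM in OGD/R and 3.22 to 4.40 in control. In control libraries Mrc1 and Vwf lay above Cx3cr1 and P2ry6, whose values are given below. Tubb3, 1 of 6 neuronal genes, was at 0.00 to 0.37 FPKM in OGD/R, with 1 library listed at 0, and 0.56 to 1.17 in control. Cspg4, 1 of 6 genes of the oligodendrocyte lineage, was at 0.00 to 0.03 and 0.08 to 0.09 FPKM. None of the 6 astrocyte, 6 fibroblast and mural, or 7 lymphocyte and granulocyte genes listed is in the table, and these are not analysed here. The part of these markers in the results below was not tested.

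On GRCm38, the build named in the submitters' processing notes, the genes lie on separate chromosomes. Cx3cr1 (ENSMUSG00000052336) lies on chromosome 9 from 119901616 to 120069879 on the minus strand, and P2ry6 (ENSMUSG00000048779) on chromosome 7 from 100937630 to 100974649 on the minus strand. Entpd1 (ENSMUSG00000048120) lies on chromosome 19 from 40612366 to 40741602 on the plus strand, and Mef2c (ENSMUSG00000005583) on chromosome 13 from 83504034 to 83667080 on the plus strand. GENCODE M21 gives them 4505, 2887, 5580 and 15715 nt of exons and 3, 3, 11 and 31 transcripts, which the gene-level FPKM values do not separate. The labels do not say if counting was stranded. Of the exons of Cx3cr1, 78 nt (1.7%) are shared with an antisense gene on the opposite strand, Gm33858, and the exons of the other 3 genes are shared with no annotated gene. No other gene of the table lies within 500 kb of P2ry6, Entpd1 or Mef2c, while Acvr2b, Slc25a38 and 4930516B21Rik lie that near to Cx3cr1.

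The promoters of these genes are shown to let a reader see which letters stand before a start, and shared control of the genes was not tested. RefSeq windows on GRCm38.p6, 250 bases before to 50 after an annotated start, were found for 3 of the 4 genes, with 1 window for Cx3cr1, 2 for Entpd1 and 3 for Mef2c. Both strands were searched for GAGGAA, the core bound by PU.1 and other ETS factors of myeloid cells, for CTA and TAG with any 4 letters between them, the frame of a MEF2 site, and for ACGTG, the core of a hypoxia response element. Capitals mark the first pair of motifs, and the windows run 5′ to 3′ on the gene's strand: chr9:120068247-120068546 (minus) for Cx3cr1, chr19:40659520-40659819 (plus) for Entpd1, and chr13:83503784-83504083 and chr13:83523406-83523705 (plus) for Mef2c.
Cx3cr1: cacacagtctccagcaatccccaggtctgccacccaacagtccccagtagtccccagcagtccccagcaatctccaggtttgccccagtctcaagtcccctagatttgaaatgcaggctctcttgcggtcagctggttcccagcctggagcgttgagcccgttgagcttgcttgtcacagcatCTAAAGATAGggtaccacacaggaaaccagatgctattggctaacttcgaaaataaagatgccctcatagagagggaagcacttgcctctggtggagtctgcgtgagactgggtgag
Entpd1 window 2: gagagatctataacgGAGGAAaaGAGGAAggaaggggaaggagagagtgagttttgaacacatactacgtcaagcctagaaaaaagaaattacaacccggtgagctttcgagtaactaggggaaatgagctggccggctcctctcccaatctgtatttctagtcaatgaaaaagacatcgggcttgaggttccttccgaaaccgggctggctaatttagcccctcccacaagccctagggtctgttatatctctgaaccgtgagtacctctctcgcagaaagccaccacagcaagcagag
Mef2c window 1: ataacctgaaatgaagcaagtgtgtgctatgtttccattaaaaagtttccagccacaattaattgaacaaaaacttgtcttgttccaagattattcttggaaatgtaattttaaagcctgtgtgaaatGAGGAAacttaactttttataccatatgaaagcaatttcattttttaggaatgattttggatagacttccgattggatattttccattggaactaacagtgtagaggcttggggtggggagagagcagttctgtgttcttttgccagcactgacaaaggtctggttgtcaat
Mef2c window 2: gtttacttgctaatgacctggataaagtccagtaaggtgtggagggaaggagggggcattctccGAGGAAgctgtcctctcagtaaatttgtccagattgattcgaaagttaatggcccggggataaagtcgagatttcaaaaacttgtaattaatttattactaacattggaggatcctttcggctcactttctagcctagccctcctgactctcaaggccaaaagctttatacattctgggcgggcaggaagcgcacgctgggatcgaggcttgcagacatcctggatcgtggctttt
The Cx3cr1 window held the MEF2 frame once, beginning 67 bases before the start, with AAGA as its free letters. A strict MEF2 site has only A and T there, so the G departs from it. The frame was in 1 of the 6 windows of these genes, and in 3.69% of 32851 RefSeq windows of the same length. GAGGAA stood 2 times in the second Entpd1 window, beginning 235 and 227 bases before the start without overlap, and once in each of the first and second Mef2c windows, beginning 122 and 186 bases before the start. That is 3 of 6 windows, against 28.3% of all windows. Windows of Entpd1 and Mef2c with no capitalised match are not printed. ACGTG was in 0 of the 6 windows and in 19.6% of all. These are matches of letters and show no binding.

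All 4 genes were higher in OGD/R, and in each the OGD/R values lay wholly above the control values. OGD/R values lay wholly above control for 48.4% of all 1228 genes, so this separation is shared with nearly every gene that is higher. All 4 passed the test in limma as higher in OGD/R, where 46.6% of the 852 tested genes did. The ratio of group means was largest for Cx3cr1 (4.74) and smallest for Mef2c (2.06), with Entpd1 (3.29) and P2ry6 (3.17) between them. With 3 samples against 3, an exact two-sided permutation test of a single gene cannot go below p = 0.1, and each of the 4 reached that value.

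Cx3cr1, the fractalkine receptor, was at 1.99, 1.55 and 1.77 FPKM in OGD/R libraries 1 to 3, and at 0.52, 0.22 and 0.38 FPKM in control libraries 1 to 3. The lowest OGD/R library was 2.98 times the highest control library. The means were 1.77 ± 0.220 FPKM in OGD/R and 0.373 ± 0.150 FPKM in control (SD, n = 3 each), and the gene rose (limma on log2(FPKM + 1), log2 fold change 1.01 ± 0.13 SE, adjusted p = 0.00048). The pseudocount of 1 shrinks the change of so low a gene, and a fit on the recovered units (voom) gave a log2 fold change of 2.30 ± 0.34 SE (adjusted p = 0.00032, within a range of 0.00032 to 0.0026 over the alternatives). Cx3cr1 rested on 72, 59 and 69 counted units in OGD/R, against 18, 8 and 13 in control. The 95% Poisson interval of the lowest OGD/R library was 1.18 to 2.00 FPKM and that of the highest control library 0.31 to 0.83 FPKM, and these intervals cover counting error only.

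P2ry6, the UDP receptor, was at 1.47, 2.05 and 1.64 FPKM in OGD/R libraries and at 0.59, 0.59 and 0.45 FPKM in control libraries. The groups did not overlap, and OGD/R library 2, the lowest of its group for Cx3cr1, was the highest for P2ry6. The means were 1.72 ± 0.298 FPKM in OGD/R and 0.543 ± 0.0808 FPKM in control (SD, n = 3 each), and the gene rose (limma, log2 fold change 0.81 ± 0.13 SE, adjusted p = 0.00091; voom 1.62 ± 0.29). Counted units were 34, 50 and 41 in OGD/R and 13, 14 and 10 in control. The counting intervals of the nearest pair of libraries, 1.02 to 2.05 FPKM in OGD/R library 1 and 0.31 to 1.01 FPKM in control library 1, nearly touched.

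Entpd1, the ectonucleotidase, was at 10.33, 10.52 and 8.79 FPKM in OGD/R libraries and at 2.81, 3.11 and 3.08 FPKM in control libraries. It varied least within the control group among the 4 genes, with a coefficient of variation of 5.51%. The means were 9.88 ± 0.949 FPKM in OGD/R and 3.00 ± 0.165 FPKM in control (SD, n = 3 each), and the gene rose (limma, log2 fold change 1.44 ± 0.11 SE, adjusted p = 9.9e-05). On that scale it was the largest change of the 4, and it ranked 47 among the 397 genes called higher, where Cx3cr1 ranked 213, Mef2c 252 and P2ry6 332. The pseudocount of 1 shrinks the lower genes in this ranking. By ratio of means Cx3cr1 ranked 125, Entpd1 201, P2ry6 213 and Mef2c 590 among the 605 higher genes. It rested on 425 to 496 counted units in OGD/R and 120 to 143 in control.

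Mef2c, the transcription factor, was at 20.30, 19.46 and 15.55 FPKM in OGD/R libraries and at 9.92, 8.44 and 8.48 FPKM in control libraries. OGD/R library 3 was the lowest of its group and still 1.57 times the highest control library. The means were 18.4 ± 2.54 FPKM in OGD/R and 8.95 ± 0.843 FPKM in control (SD, n = 3 each), and the gene rose (limma, log2 fold change 0.96 ± 0.13 SE, adjusted p = 0.00059). It was counted most deeply, with 2115 to 2585 units in OGD/R and 1015 to 1193 in control. Its ratio of means ranked 590 among the 605 higher genes, close to the edge at which genes enter the table.

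**Figure D1:**
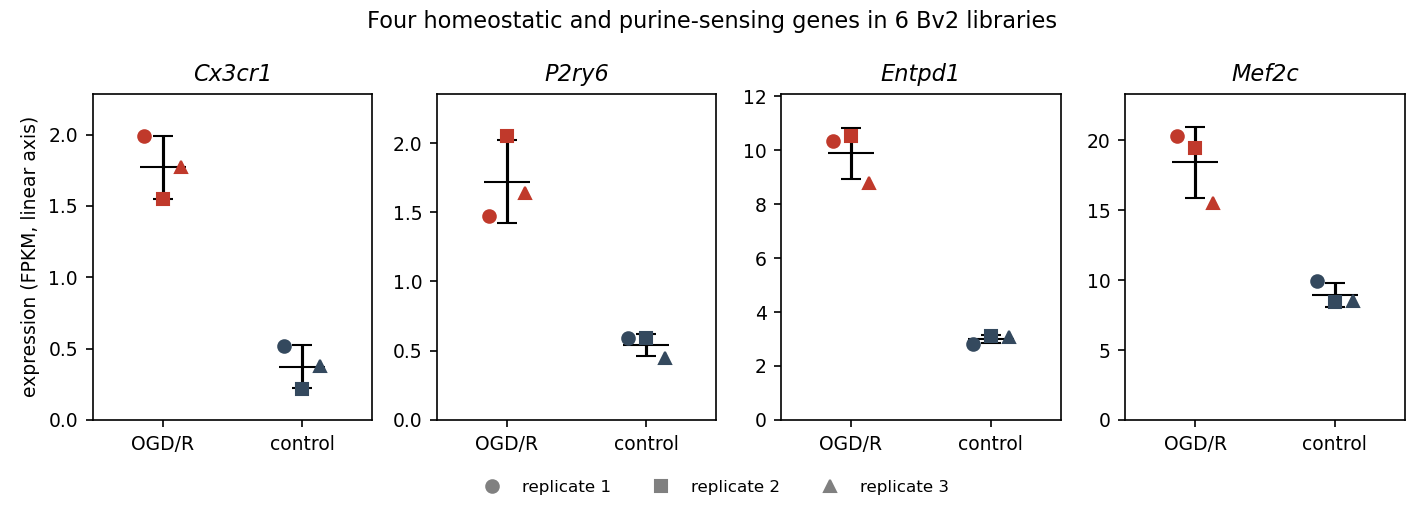
FPKM of Cx3cr1, P2ry6, Entpd1 and Mef2c (linear axes from 0) in 3 OGD/R and 3 control libraries, with one marker shape per replicate number, and mean and SD as bars. In each panel the OGD/R points stand wholly above the control points, with Cx3cr1 at 1.55 to 1.99 FPKM in OGD/R against 0.22 to 0.52 in control.

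The order of the levels was Mef2c, then Entpd1, then the pair of receptors in both groups. Cx3cr1 and P2ry6 could not be told apart from each other in OGD/R, at 1.55 to 1.99 and 1.47 to 2.05 FPKM. In control they overlapped as well, at 0.22 to 0.52 FPKM for Cx3cr1 and 0.45 to 0.59 FPKM for P2ry6. The level of Mef2c over that of Entpd1 averaged 1.86 ± 0.0986 in OGD/R and 3.00 ± 0.460 in control (SD, n = 3 each; exact permutation p = 0.1, 0.133 adjusted over 4 level ratios chosen after the values were seen). The level of Entpd1 over that of P2ry6 averaged 5.84 ± 1.03 in OGD/R and 5.63 ± 1.09 in control (exact permutation p = 0.7, adjusted p = 0.7), so a change in this ratio was not detected with 3 samples a group. Across the 6 libraries the Pearson correlation of log2(FPKM + 1) between pairs of the 4 genes was 0.919 to 0.974, and the difference between the groups, which nearly all genes of this table share, is part of each value. Within groups the libraries took no common order: no library was highest for all 4 genes, and OGD/R library 3 was the lowest for Entpd1 and Mef2c but for neither receptor.

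**Figure D2:**
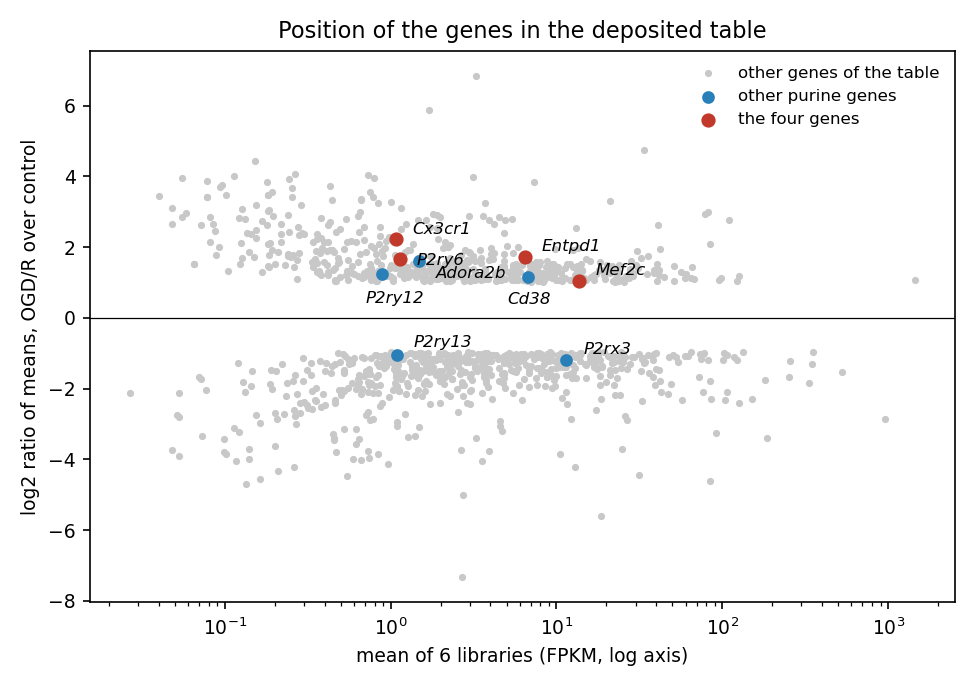
Log2 ratio of mean FPKM (OGD/R over control) against the mean of the 6 libraries (FPKM, log axis) for the 1184 genes with both group means above 0, with the 4 genes in red and other purine genes in blue. The band around 0 is empty because the table was picked for a difference, Mef2c sits at its upper edge (log2 ratio 1.04) and Cx3cr1 stands higher (2.25).

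The patterns most like each gene over the 6 libraries were found by Pearson correlation of log2(FPKM + 1), and these are descriptions without a test. For Cx3cr1 they were Enc1 (r = 0.994), Pgm2l1 (0.993) and mt-Tq (0.993). For P2ry6 they were Ifit2 (0.998), Tagap (0.995) and Dusp5 (0.988). Ttk, Fignl1 and Polh were nearest to Entpd1 (0.997 each), and Brca1, Ammecr1 and Tlr13 to Mef2c (0.997 each). No gene was nearest to more than one of the 4. Dusp5, for example, had its highest value in OGD/R library 2 (15.52 FPKM), as P2ry6 did, and Brca1 had its lowest OGD/R value in library 3 (10.58 FPKM), as Mef2c did.

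Receptors for extracellular nucleotides and adenosine moved both ways. Of 21 purine receptors listed, 5 are in the table and 4 were tested. P2ry6 itself and the adenosine receptor Adora2b rose. Beside P2ry6, the tested nucleotide receptors, P2rx3 and P2ry13, fell. The median log2 fold change of the 4, P2ry6 included, was 0.14, against -0.68 over all tested genes. The latter is no level of unchanged genes, since the table was picked for a difference. Genes called lower made up 50.7% of those tested. In bulk RNA, fewer cells expressing a gene and less RNA of it per cell cannot be told apart.

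P2ry12, the ADP receptor that is a classical marker of resting microglia, stood below the minimum for the test. It was at 1.08, 1.62 and 1.04 FPKM in OGD/R and at 0.56, 0.62 and 0.41 FPKM in control libraries, with 22, 35 and 23 counted units against 11, 13 and 8. Its groups did not overlap, but the counting intervals of the nearest libraries did (0.66 to 1.57 FPKM in OGD/R library 3 and 0.33 to 1.06 FPKM in control library 2). Without the minimum its log2 fold change was 0.55 ± 0.13 SE (limma, adjusted p = 0.0062), in a fit that called 96.0% of 1228 genes.

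P2ry13, another ADP receptor, was at 0.84, 0.84 and 0.46 FPKM in OGD/R and at 1.75, 1.44 and 1.24 FPKM in control libraries. It is the homeostatic gene that went against the others, and it fell (limma, log2 fold change -0.53 ± 0.15 SE, adjusted p = 0.011). With libraries scaled by the median ratio of the tested genes its log2 fold change was -0.31 and it was not called (limma, adjusted p = 0.18). That scaling had few unchanged genes to rest on, since 97.3% of the tested genes were called. Over the other alternatives, in limma or voom, the adjusted p was 0.0094 to 0.05, highest with upper quartile scaling. P2ry12 and P2ry13 are neighbours on chromosome 3, at 59216272 to 59262871 and 59207892 to 59210882, both on the minus strand inside the span of Med12l on the other strand. The level of P2ry12 over that of P2ry13 was 1.29, 1.93 and 2.26 in OGD/R libraries and 0.32, 0.43 and 0.33 in control libraries. The ratio was above 1 in each OGD/R library and below 1 in each control library. Its groups had to separate, since P2ry12 lay wholly higher and P2ry13 wholly lower in OGD/R. The exact permutation p of 0.1 (adjusted p = 0.133) was thus fixed beforehand and adds nothing. It rests on few units, with 22, 35 and 23 for P2ry12 and 17, 18 and 10 for P2ry13 in OGD/R, and 11, 13 and 8 for P2ry12 and 34, 30 and 24 for P2ry13 in control. The counting intervals of both genes overlapped within each OGD/R library and within control libraries 2 and 3. Overlap of such intervals does not show equal levels, and the genes were not compared by a test within a library.

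Adora2b, a low-affinity receptor for adenosine, was at 2.09, 2.30 and 2.31 FPKM in OGD/R and at 0.71, 0.72 and 0.78 FPKM in control libraries, and rose (limma, log2 fold change 0.90 ± 0.10 SE, adjusted p = 0.00026). P2rx3, an ATP-gated channel best known from sensory neurons, was at 6.56, 6.44 and 7.94 FPKM in OGD/R and at 13.38, 17.65 and 16.92 FPKM in control libraries, and fell (log2 fold change -1.09 ± 0.14 SE, limma adjusted p = 0.00046). With median ratio scaling its log2 fold change was -0.68. It was the most abundant purine receptor of the table in both groups. Its exons share 51 nt (1.8%) with Ssrp1 on the opposite strand, so a part of its reads is uncertain.

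Of 31 genes listed for the handling of nucleotides and adenosine, Entpd1 itself and Cd38 are in the table and both rose, where 46.6% of all tested genes were called higher. Cd38, an ectoenzyme that uses NAD, was at 9.51, 9.26 and 9.37 FPKM in OGD/R and at 4.26, 4.12 and 4.15 FPKM in control libraries (limma, log2 fold change 1.00 ± 0.09 SE, adjusted p = 0.00012). Entpd1 stood near Cd38 in OGD/R, at 8.79 to 10.52 FPKM, and below it in control. The other listed enzymes and carriers, among them Nt5e, which makes adenosine from AMP, are not analysed here.

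**Figure D3:**
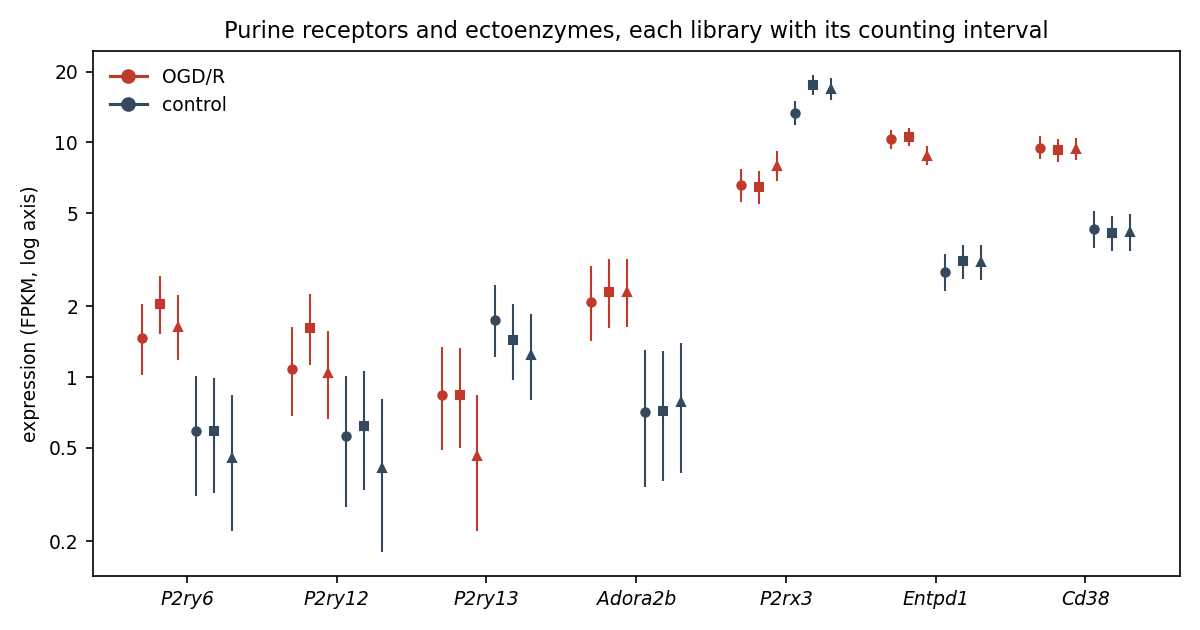
FPKM (log axis) of 5 purine receptors and 2 ectoenzymes in each library, OGD/R in red and control in blue, with 95% Poisson intervals from the recovered units as bars. P2ry6, P2ry12, Adora2b, Entpd1 and Cd38 stand higher in OGD/R and P2ry13 and P2rx3 lower, and the intervals of P2ry12 and P2ry13 overlap between groups.

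Of 50 genes listed as homeostatic for microglia, 9 are in the table and 7 were tested, of which 6 rose and P2ry13 fell, where 46.6% of all tested genes were called higher. Of the 6, 4 are Cx3cr1, P2ry6, Entpd1 and Mef2c themselves. The median log2 fold change of the 7 was 0.96, which is the value of Mef2c, against -0.68 over all tested genes. The latter is no level of unchanged genes. These 4 genes were chosen with earlier results of these data known, so the count and the median largely restate that choice. Apart from them, Smad3 and Pros1 rose and P2ry13 fell. Beside the 4 genes, Smad3, which carries signals of TGF-beta, a factor that microglia need to hold their identity, was at 4.72, 4.35 and 4.23 FPKM in OGD/R and at 1.01, 1.25 and 1.28 FPKM in control libraries. It rose (limma, log2 fold change 1.32 ± 0.11 SE, adjusted p = 0.00011). Pros1, a ligand of the receptors Tyro3 and Mertk in the uptake of dead cells, averaged 2.55 ± 0.301 FPKM in OGD/R and 1.04 ± 0.129 FPKM in control (SD, n = 3 each), and rose with a log2 fold change of 0.80. Maf, a transcription factor of macrophages, was not tested, at 0.90 to 1.09 FPKM in OGD/R and 0.27 to 0.49 in control, and 440 nt of its exons are shared with an antisense gene, Gm15655. Of 17 listed transcription factors of the myeloid lineage, Mef2c, Smad3 and Maf are in the table.

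Of 26 genes of the fractalkine axis and chemokine receptors, 3 are in the table and all 3 rose, Cx3cr1 itself among them, where 46.6% of all tested genes were called higher. Beside Cx3cr1 they were Cxcr4, the receptor for Cxcl12, at 3.93, 3.59 and 2.87 FPKM in OGD/R and 0.36, 1.34 and 0.65 FPKM in control libraries (limma, log2 fold change 1.35 ± 0.22 SE, adjusted p = 0.0011), and Ccrl2, an atypical receptor that presents chemerin. Ccrl2 averaged 1.72 ± 0.511 FPKM in OGD/R and 0.553 ± 0.349 FPKM in control (SD, n = 3 each; limma, log2 fold change 0.82 ± 0.22 SE, adjusted p = 0.010). Cx3cl1, which encodes fractalkine itself, is not analysed here.

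Of 16 genes listed for the MEF2 family, its partners and its targets, 5 are in the table and were tested. Mef2c itself and Nr4a1 rose, and Mef2b, Hdac9 and Klf4 fell, where 46.6% of all tested genes were called higher and 50.7% lower. The median log2 fold change of the 5 was -0.72, against -0.68 over all tested genes. Both are negative because more genes were called lower than higher, and neither is a level of unchanged genes. Mef2b, a family member, was at 0.53, 0.59 and 0.58 FPKM in OGD/R and at 0.93, 2.59 and 1.77 FPKM in control libraries, and fell (limma, log2 fold change -0.77 ± 0.23 SE, adjusted p = 0.014). Mef2c was 32.7 ± 5.75 times Mef2b in OGD/R and 6.24 ± 3.91 times in control (SD, n = 3 each). This ratio also had to separate, since Mef2c lay wholly higher and Mef2b wholly lower in OGD/R. Its exact permutation p of 0.1 (adjusted p = 0.133) therefore adds nothing. Of the exons of Mef2b, 62 nt (4.4%) are shared with Borcs8 on the same strand.

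Hdac9, a histone deacetylase that binds MEF2 proteins and represses their targets, was at 1.21, 1.03 and 1.18 FPKM in OGD/R and at 2.62, 2.65 and 2.33 FPKM in control libraries, and fell (limma, log2 fold change -0.72 ± 0.10 SE, adjusted p = 0.00065). With median ratio scaling its log2 fold change was -0.45. Among genes known as MEF2 targets in other cells, Klf4 averaged 0.967 ± 0.121 FPKM in OGD/R and 4.50 ± 0.662 FPKM in control (SD, n = 3 each), and fell with a log2 fold change of -1.48. Nr4a1, an orphan nuclear receptor of early responses, averaged 6.72 ± 1.25 FPKM in OGD/R and 0.713 ± 0.0586 FPKM in control, and rose with 2.16.

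**Figure D4:**
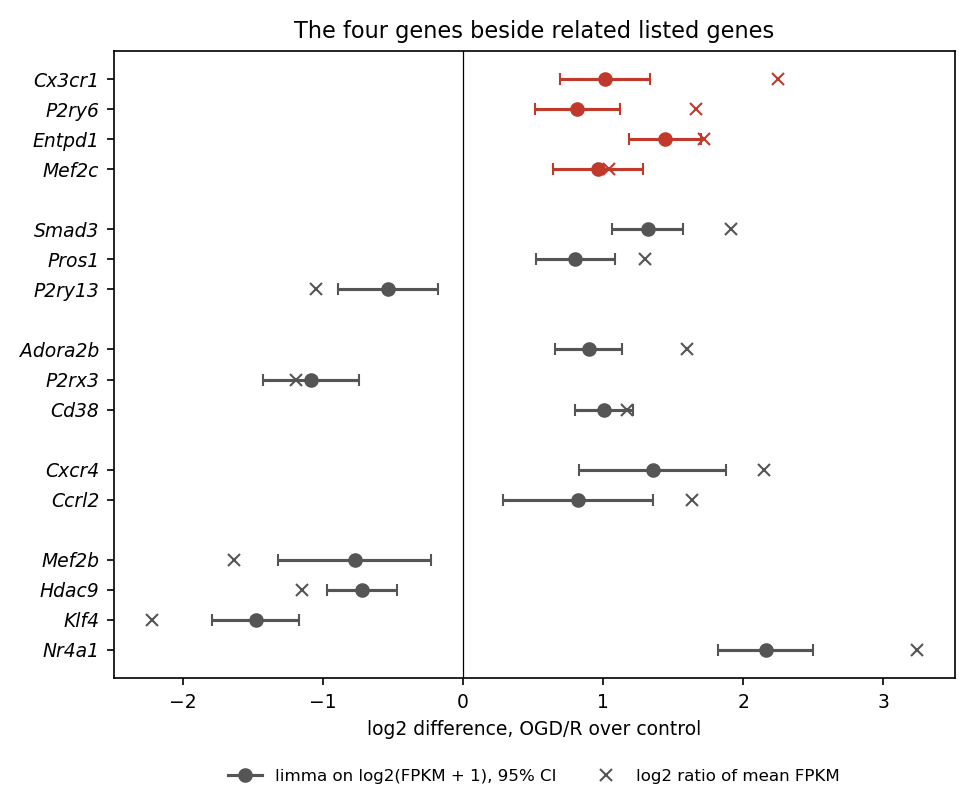
Log2 difference (OGD/R over control) of the 4 genes, in red, and of related listed genes that were tested, in grey. Circles are limma estimates on log2(FPKM + 1) with 95% confidence intervals, and crosses are log2 ratios of mean FPKM. The 4 genes stand at 0.81 to 1.44 by the circles, and the crosses lie far from them where levels are low, as for Cx3cr1 (2.25).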

How the data were processed

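RNA from 6 Bv2 samples, 3 OGD/R and 3 control, was sequenced from 1 ug of input as paired reads of 150 nt, per the labels' protocols. The authors deposited FPKM values to 2 decimals in 1 table of 1228 genes. Reads were placed on GRCm38, as the submitters' processing notes name it. Its aligner, counting tool, annotation and gene selection were not given in the sources used here. FPKM printed for a gene is what the authors deposited, and everything else was computed from it.

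The 852 genes whose mean reached 1 FPKM entered limma 3.58.1 (R 4.3.3) as log2(FPKM + 1) (group as the factor, eBayes with a trend, two-sided, Benjamini-Hochberg over all of them, threshold 0.05). Counted units were recovered from the steps of low values (under 15 units) and GENCODE M21 exon lengths, which placed 1227 of the IDs. A unit may be a read or a pair. Both steps were tested on simulated data. The simulation for limma changed only a part of the genes, so it does not check calls in this table picked for a difference. Other steps used Python 3.11.15, pandas 2.3.3, numpy 2.4.6 and scipy 1.17.1. The members and gene lists were chosen with earlier results of these data known. Named genes were the 4 members, listed genes present in the table (for disease-associated and pan-myeloid lists the 4 with the largest change), and the 3 most correlated tested genes of each member. Alternatives covered the pseudocount, the filter, the scaling, eBayes settings, a replicate block, voom on recovered units and each library left out.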

Additional observations from a re-analysis of the deposited data

How the results depend on the processing

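The 4 genes remained higher in OGD/R and called in every setting that tested them. Without any 1 library the log2 fold change was 0.93 to 1.09 for Cx3cr1, 0.73 to 0.88 for P2ry6, 1.40 to 1.51 for Entpd1 and 0.89 to 1.07 for Mef2c, with adjusted p of at most 0.0047 in limma. Smaller pseudocounts and voom on the recovered units raised it to as much as 2.30 for Cx3cr1 and 1.64 for P2ry6, since a pseudocount of 1 shrinks low genes. With a filter of at least 5 FPKM 423 genes were tested and 409 called, and fewer listed genes were left: 2 of the 4 genes (Entpd1 and Mef2c), 2 homeostatic genes, 1 purine receptor, 1 gene of the MEF2 list, 1 myeloid transcription factor, and 0 of 0 in the chemokine receptor list, all of them called. The median log2 fold change of all tested genes, -0.68, depends on these choices: it was -0.12 without the filter, -0.91 with the filter of 5, -0.98 and -0.99 with pseudocounts of 0.1 and 0.01, -0.99 with voom, -0.40 with median ratio scaling (a shift of 0.28) and -0.55 with upper quartile scaling (0.13). Relative to that median, Cx3cr1 stood at 1.69 as deposited and 1.60 with median ratio scaling, P2ry6 at 1.49 and 1.42, Entpd1 at 2.12 and 2.20, Mef2c at 1.64 and 1.77, and P2ry13 at 0.14 and 0.09. Over all settings Cx3cr1 stood 1.13 (no filter) to 3.29 (voom) above it. In a table picked for a difference this median marks no level of unchanged genes. The factors of both scalings came from the same picked genes. With median ratio scaling P2rx3, Hdac9 and Csf1 stayed called, at -0.68, -0.45 and -0.60. Of 34 named genes tested, 31 had the same direction and call wherever they were tested among the 15 settings. The exceptions were P2ry13 with median ratio scaling, Cd52 without OGD/R replicate 3 (0.90) or control replicate 1 (0.86), and Mrc1 without control replicate 3 (0.58), where the cause was not tested.

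Whether libraries that share a replicate number were paired could not be settled from so few correlations. The deviations within a group are also tied to each other by its mean. The correlation of deviations from the group means was 0.428, -0.349 and 0.375 for libraries that share a number, against -0.628 to 0.479 for the rest. With the replicate block 835 genes were called and all 4 members stayed called, with adjusted p = 0.0014, 0.0031, 0.00095 and 0.0014 for Cx3cr1, P2ry6, Entpd1 and Mef2c in limma. Depth limits the receptors most, since Cx3cr1 and P2ry6 had 8 to 18 units in each control library.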

Other observations

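Of 26 genes listed for the disease-associated microglial state, in which homeostatic genes are known to decline, 3 are in the table, with 2 called higher and 1 lower, where 46.6% of all tested genes were called higher and 50.7% lower. So few genes describe themselves and not the state. Clec7a, the receptor dectin-1 for fungal glucans, was at 23.18, 22.79 and 18.24 FPKM in OGD/R and at 6.97, 4.97 and 4.52 FPKM in control libraries, and rose (limma, log2 fold change 1.80 ± 0.17 SE, adjusted p = 0.00016). Csf1, the growth factor that microglia depend on, averaged 11.4 ± 0.453 FPKM in OGD/R and 24.1 ± 2.67 FPKM in control (SD, n = 3 each), and fell with a log2 fold change of -1.02, or -0.60 with median ratio scaling. Cd52, a small surface glycoprotein of leukocytes, was at 9.65, 9.45 and 19.35 FPKM in OGD/R and at 2.42, 7.46 and 5.19 FPKM in control libraries. Cd52 rose (log2 fold change 1.22 ± 0.40 SE, limma adjusted p = 0.022) but was not called without OGD/R replicate 3 (adjusted p = 0.061; alternatives spanned 0.0010 to 0.061).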
